A study of Rattus norvegicus with 15 samples.

Results

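Of 9 listed rat genes of retinoid metabolism and binding, 8 were among the 11574 genes of the count table, and they are described here over all 15 libraries of H9c2 cells, a myoblast line from rat heart. The genes were chosen by symbol: Cyp26b1, Dhrs3, Rdh5, Rdh10, Rdh11, Rdh13, Aox1, Retsat and Crabp2. Crabp2, the cellular binding protein that carries retinoic acid (RA) to its nuclear receptors, had no row, so that its expression was not analysed here. The table holds only genes with more than 20 counts over the libraries, so a gene can be in it through some of the groups alone. Cyp26b1 was in it through the libraries with RA, since the 9 libraries without RA held 5, 2 and 2 of its counts by group, and T7+RA and T14+RA held 407 and 1418.

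All cells were wild type (labelled WT). T0 was the culture at day 0, sampled a day after seeding. T7-RA and T14-RA were kept for 7 and 14 days in low serum without RA, and T7+RA and T14+RA were kept for the same times in low serum with 1 µM all-trans RA dissolved in DMSO and added every day. Each of the 5 groups had 3 libraries. Whether the cultures without RA received DMSO is not given in the sources used here, and T0 was not exposed to low serum for days, so culture time and serum reduction cannot be told apart. The cell line entry of the labels counts upwards from one sample to the next after T0, while every title names H9c2. In these bulk libraries fewer cells expressing a gene and less RNA per cell cannot be told apart.

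Library totals lay between 508397 and 1030820 counts, a shallow depth, with a median of 22 counts over genes and libraries. Values are given as raw counts and as CPM (counts relative to the library total) scaled by the trimmed mean of M values (TMM), and 1 count was worth 0.965 to 2.10 CPM. Of 8 markers of skeletal myoblasts and myotubes 6 were in the table, of 8 cardiomyocyte markers only Gata4 with 132 counts, and of 4 macrophage markers 0. The lack of a row does not show a low level. The cardiomyocyte marker Ryr2 had no row, while the paper reports by qPCR that it increased under RA. Smooth muscle markers (5 of 5), fibroblast markers (4 of 6) and endothelial markers (1 of 5, Tek) were also listed. At T0 the summed level of the skeletal markers was 859 to 876 CPM, that of the smooth muscle markers 15547 to 17043 CPM and that of the fibroblast markers 24632 to 37564 CPM.

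Retinoids derive from vitamin A. Retinol is oxidised reversibly to retinal by retinol dehydrogenases, and retinal is oxidised irreversibly to RA. RA binds RAR receptors, which sit with their RXR partners on paired half-sites in DNA. Cells limit RA by hydroxylating it with CYP26 enzymes and by reducing retinal back to retinol, and several genes of these limiting steps are textbook targets of RA itself.

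The promoter sequences of the pair that moved most with RA among the 8 genes are shown because their response invites a look at the DNA before the start site. They are the 250 bases before the start in RefSeq's GRCr8 assembly, read 5′ to 3′ on the strand of the gene. The counts were made on Rnor_6.0, so these coordinates are not those of the count table. Of the 9 listed genes 7 had a promoter in the RefSeq table, and Rdh10 and Rdh13 did not.
Cyp26b1 (chr4:118616177-118616426, minus strand): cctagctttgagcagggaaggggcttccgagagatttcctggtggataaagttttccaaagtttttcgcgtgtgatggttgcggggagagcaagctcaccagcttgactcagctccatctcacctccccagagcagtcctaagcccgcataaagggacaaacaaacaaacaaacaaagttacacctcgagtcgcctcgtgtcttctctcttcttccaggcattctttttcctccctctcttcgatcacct
Dhrs3 (chr5:162031603-162031852, plus strand): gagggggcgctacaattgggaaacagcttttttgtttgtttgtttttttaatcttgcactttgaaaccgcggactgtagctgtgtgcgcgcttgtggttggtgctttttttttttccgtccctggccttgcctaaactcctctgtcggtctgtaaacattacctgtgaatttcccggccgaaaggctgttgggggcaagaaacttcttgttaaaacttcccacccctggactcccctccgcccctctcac

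Neither stretch has capitals because neither held a receptor half-site. Half-sites were searched on both strands as AGGTCA or AGTTCA and also as GGGTCA or GGTTCA, in windows of 300 bases (250 before and 50 after the start), and a direct repeat was counted where 2 half-sites in the same orientation lay 2 or 5 bases apart. The 4 motifs have the same length, so that 1 position on a strand can match only 1 of them. Cyp26b1, Dhrs3, Rdh5, Aox1 and Crabp2 held no half-site in this window, Retsat held 1 and Rdh11 held 3. A half-site was found in 44.4% of 33469 rat promoters of this length, a direct repeat with 2 bases between in 0.17% and one with 5 in 0.382%. None of the 7 promoters held a direct repeat. For reference the stretch of Cyp26a1, a hydroxylase of the same family that is not among the genes analysed here, holds a repeat with 5 bases between, and it is shown with the half-site of Retsat and 1 of those of Rdh11. Counted from the start site, the first bases of these half-sites lie at −92 and −81 for Cyp26a1, −178 for Retsat and −122 for Rdh11. The half-sites are in capitals, and that of Cyp26a1 reads as AGTTCA on the opposite strand.
Cyp26a1 (chr1:244883720-244883756, plus strand): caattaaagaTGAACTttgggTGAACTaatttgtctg
Retsat (chr4:106211271-106211296, plus strand): tgcgccgcaaAGGTCAtatggagacc
Rdh11 (chr6:103728354-103728379, minus strand): agcggcactcAGTTCAggctggattt
The absence of these letters from a window of this size says nothing of sites elsewhere.

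Cyp26b1 and Dhrs3, 2 of the 8 genes, rose with RA, and they headed the whole table by the p-value of the RA term. RA was tested in an additive model over all libraries with terms for T7, T14 and RA, and a gene was called at an edgeR adjusted p under 0.001. The RA term is a single change with RA fitted to both days, and it need not equal their plain average. In this term 2 members were called higher and 0 lower, while 6.39% of all 11574 genes were called in either direction and 3.33% higher. At an unadjusted p under 0.05 the RA term held 4 members, the called pair with Rdh5 and Aox1, where 24.8% of all genes passed. The median RA log2 fold change was 0.26 over the 8 genes and −0.01 over all genes. By p-value Cyp26b1 ranked 1 and Dhrs3 ranked 2 of 11574, and by log2 fold change they ranked 1 and 5. In the day 7 contrast their p-value ranks were 6 and 3. Cyp26b1 was in the table through the libraries with RA, and the members were chosen with earlier results of these data known. The count of members called and these ranks therefore describe the genes and do not test the set.

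**Figure D1:**
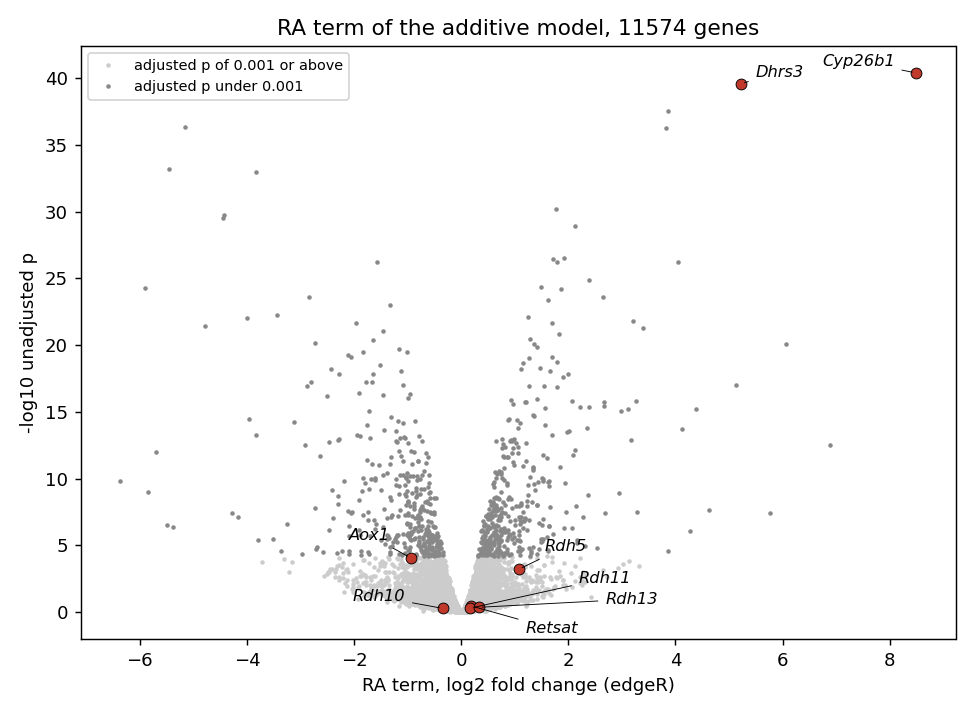
The RA term of the additive model for all 11574 genes, with the log2 fold change on the x axis and the negative log10 of the unadjusted p on the y axis. Red points are the 8 retinoid genes, of which Cyp26b1 (8.49) and Dhrs3 (5.22) lie at the top right, and dark grey points have an edgeR adjusted p under 0.001.

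Cyp26b1 (ENSRNOG00000015076, 4q34, 1834 counts over all libraries), the hydroxylase that starts the breakdown of RA, went from almost no reads to one of the more abundant transcripts. Its T0 libraries held 4, 1 and 0 counts, the T7-RA libraries 2, 0 and 0, and the T14-RA libraries 0, 0 and 2. With RA they were 131, 151 and 125 at day 7 and 672, 417 and 329 at day 14. In CPM the T7+RA libraries stood at 187, 203 and 214 and the T14+RA libraries at 648, 655 and 596. Every library with RA lay far above every library without it, and the days with RA did not overlap either.

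The T0 mean of Cyp26b1 was 2.46 ± 2.81 CPM (SD, n = 3). Without RA the later means were 0.80 ± 1.38 CPM at day 7 and 1.13 ± 1.96 at day 14, and with RA they were 201 ± 13.8 and 633 ± 32.2. By its level in CPM it ranked 10807 of 11574 genes in the T0 libraries, 1003 with RA at day 7 and 173 with RA at day 14. Its RA term was 8.49 (SE 0.726, edgeR adjusted p = 4.77e-37), with 9.20 without T7-RA replicate 1 and 7.39 in limma on quantile-normalized counts. Because T7-RA and T14-RA each held only 2 counts, the fitted fold depends on the small count that the model adds. The ratio of the summed counts, scaled to library size, was 228 at day 7 (407 against 2 counts, 95% exact interval 62.6 to 1886) and 633 at day 14 (1418 against 2 counts, 175 to 5236). These intervals cover counting error only.

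At each day the RA change of Cyp26b1 was called, with a log2 fold change of 7.56 at day 7 (SE 1.03, edgeR adjusted p = 5.04e-27) and 9.06 at day 14 (SE 1.03, edgeR adjusted p = 1.12e-35). Without T7-RA replicate 1 or T14-RA replicate 3, the libraries that held the 2 counts, these became 10.1 and 11.8. Without T14-RA replicate 1 the day 14 value was 8.37. Limma on quantile-normalized counts gave 6.65 at day 7 and 8.14 at day 14. The difference of the RA change between the days was 1.496 (95% interval −1.42 to 4.41, edgeR adjusted p = 0.879), and it was −1.02 without T7-RA replicate 1 and 4.19 without T14-RA replicate 3. Between the cultures with RA, where the counts are ample, Cyp26b1 rose from day 7 to day 14 by 1.66 on the log2 scale (SE 0.124, edgeR adjusted p = 2.11e-17), a count ratio of 3.18 (2.85 to 3.56), and limma on quantile-normalized counts did not call it (1.64, limma adjusted p = 0.0439). This contrast of T14+RA with T7+RA, in which 4.67% of all genes were called, was added after the counts had been seen.

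Dhrs3 (ENSRNOG00000015736, 5q36, 1559 counts), the reductase that returns retinal to retinol, rose with RA at both days from a low but measurable level. The T0 libraries held 3, 1 and 2 counts, the T7-RA libraries 6, 4 and 6, the T14-RA libraries 13, 3 and 7, the T7+RA libraries 209, 215 and 170 and the T14+RA libraries 437, 275 and 208. In CPM these were 4.14, 1.88 and 4.19, then 7.16, 5.38 and 8.71, then 15.6, 5.31 and 11.9 without RA, and 298, 289 and 291 at day 7 and 422, 432 and 377 at day 14 with RA. The libraries with RA were far above the others, the groups without RA were in order of time with T14-RA overlapping T7-RA, and the T7+RA libraries lay within a few percent of each other.

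Dhrs3 had a T0 mean of 3.40 ± 1.32 CPM (SD, n = 3). Day 7 and day 14 means were 7.08 ± 1.67 and 10.9 ± 5.21 CPM without RA, against 293 ± 4.77 and 410 ± 29.2 with it. Its RA term reached 5.22 (SE 0.239, edgeR adjusted p = 1.56e-36), and the single days gave 5.34 at day 7 (SE 0.370, edgeR adjusted p = 4.56e-30) and 5.13 at day 14 (SE 0.311, edgeR adjusted p = 1.42e-31). Cyp26b1 and Dhrs3 were the 2 members called in each of these single-day contrasts, in which 3.17% and 4.81% of all genes were called. The change at day 14 minus that at day 7 was −0.21 (95% interval −1.17 to 0.76, edgeR adjusted p = 0.956). No member was called for this difference at an edgeR adjusted p under 0.05, 0 had an unadjusted p under 0.05 against 8.35% of all genes, 0 were called by DESeq2 or limma, and 0.743% of all genes were called. The RefSeq annotation has another gene over part of Dhrs3, and how many reads they could share was not measured.

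Without RA the change of Dhrs3 over time did not pass the threshold. Its T14 term, the change from T0 to day 14 common to the cultures with and without RA, was 1.60 (edgeR adjusted p = 0.0112), and T14-RA against T0 gave 1.69 (edgeR adjusted p = 0.0145), both short of the threshold. Limma on quantile-normalized counts gave 0.91 and 0.89 for these. T14+RA against T7+RA gave 0.49 (SE 0.113, edgeR adjusted p = 0.00108). This last contrast crossed the threshold when T0 replicate 1, 2 or 3 was left out (adjusted p from 0.000154 to 0.000789 in edgeR). It also crossed with relative log expression factors (0.000854), library size only (0.000869), the low-count filter (0.000778) and the replicate block (0.000406) in edgeR and with limma-voom (0.000874), but not with DESeq2 (0.0117) or limma on quantile-normalized counts (0.358).

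In the cultures with RA, Cyp26b1 was higher relative to Dhrs3 at day 14 than at day 7. Per kilobase of gene length the ratio of Cyp26b1 to Dhrs3 was 0.286, 0.321 and 0.336 in the T7+RA libraries and 0.703, 0.693 and 0.723 in the T14+RA libraries. The groups did not overlap, and the log2 ratio was −1.67 ± 0.119 (SD, n = 3) at day 7 and −0.50 ± 0.031 at day 14, a difference of 1.17 or 2.25-fold. This ratio does not depend on library scaling, and as it was chosen after the counts had been seen it is given without a test.

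**Figure D2:**
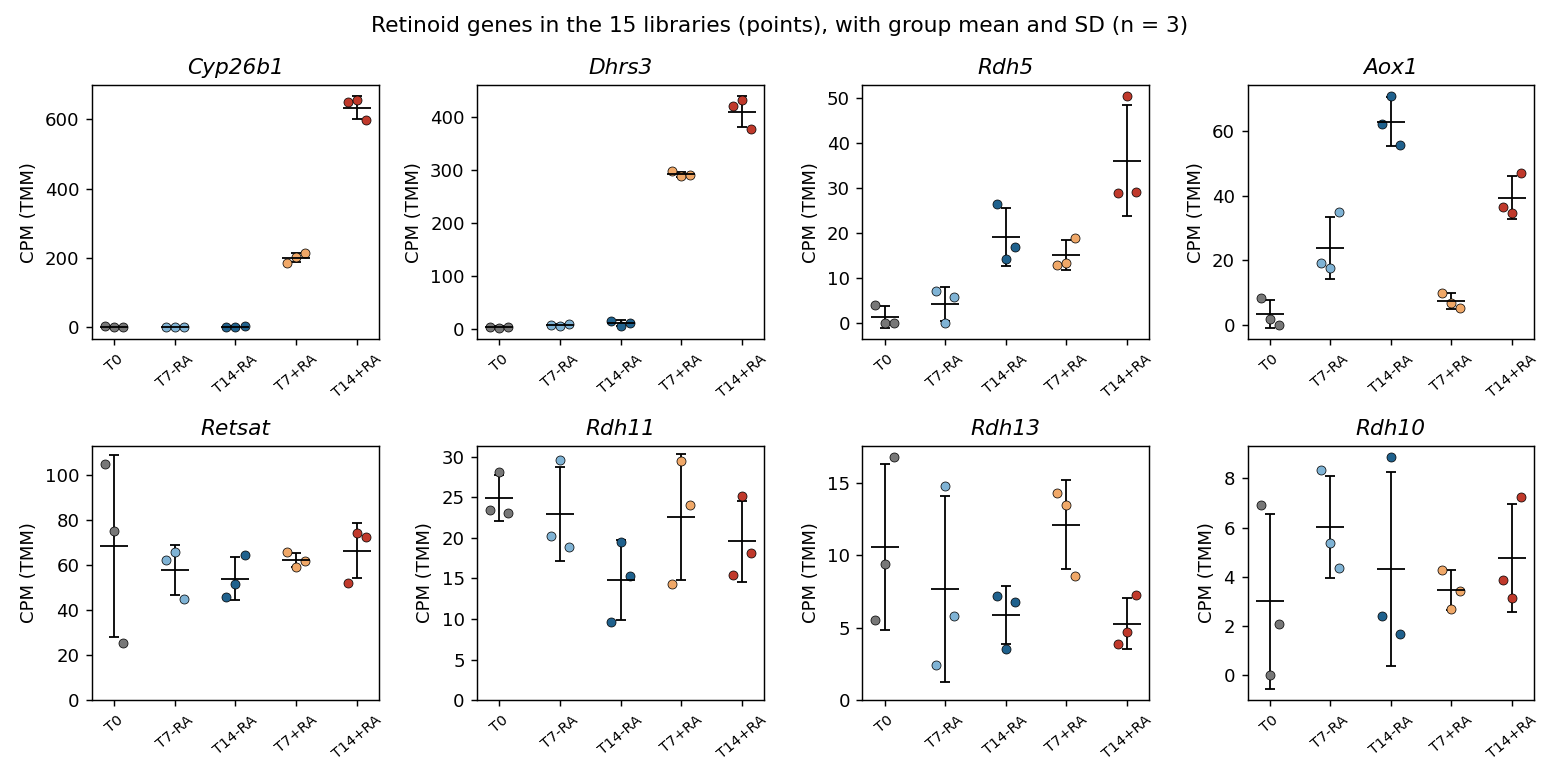
Expression of the 8 genes in CPM on the y axis of each panel (its own scale) for the 5 groups on the x axis, with points for the 15 libraries and lines for the group mean and SD (n = 3). Cyp26b1 and Dhrs3 are near 0 without RA and at 187 CPM or more in every library with RA, Aox1 is highest in T14-RA (55.9 to 70.8 CPM), and Retsat is spread most widely at T0 (25.2 to 105 CPM).

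Rdh5 and Aox1 rose with culture time. In the T14 term both were called higher and 0 members lower, while 17.3% of all genes were called in either direction and 8.47% higher, and in the T7 term Aox1 alone was called, with 8.73% of all genes. The median T14 log2 fold change was 0.05 over the 8 genes and 0.05 over all genes. At an unadjusted p under 0.05 the T14 term held 3 members and the T7 term 4, against 43.1% and 34.2% of all genes. Dhrs3, Rdh5 and Aox1 were in both and higher. The other member of the T7 term was Cyp26b1, which was lower (−2.44, with 5 counts at T0 and 2 in T7-RA).

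Rdh5 (ENSRNOG00000053850, 7q11, 161 counts) encodes a cis-retinol dehydrogenase best known from the retinal pigment epithelium. The T0 libraries held 3, 0 and 0 of its counts and those of T7-RA held 6, 0 and 4, while T14-RA held 22, 8 and 10, T7+RA 9, 10 and 11 and T14+RA 30, 32 and 16. In CPM the T14-RA libraries stood at 26.4, 14.17 and 16.9, the T7+RA libraries at 12.8, 13.4 and 18.9 and the T14+RA libraries at 28.9, 50.3 and 29.0. The day 14 groups lay above T0 and above their own day 7 group in every library, and at each day the libraries with RA lay above those without it.

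The T14 term of Rdh5 was 3.24 (SE 0.962, edgeR adjusted p = 0.000117), and T14-RA against T0 gave 3.40 (SE 0.952, edgeR adjusted p = 4.40e-05), a contrast in which 2 members and 15.7% of all genes were called. T0 held 3 counts, all in replicate 1, so the size of the change is uncertain. The count ratio, which rests on the same counts, was 11.6 (40 against 3 counts, 95% exact interval 3.71 to 58.8, counting error only). The call of the T14 term was lost without T0 replicate 2 (edgeR adjusted p = 0.00118), T0 replicate 3 (0.00121) or T14-RA replicate 1 (0.00167), and that of T14-RA against T0 without T14-RA replicate 1 (0.00187). Without T0 replicate 1 the fitted values were 6.62 and 6.78 with T0 at 0 counts. With DESeq2 or limma neither call of Rdh5 was made, with adjusted p from 0.00146 to 0.00606. The T14 term and T14-RA against T0 were 3.36 and 3.53 in DESeq2, 3.22 and 3.48 in limma-voom and 2.16 and 2.40 in limma on quantile-normalized counts.

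The RA term of Rdh5 was 1.08 (SE 0.306, 95% interval 0.464 to 1.69, edgeR adjusted p = 0.00668), and so short of the threshold. T7+RA against T7-RA gave 1.71 (edgeR adjusted p = 0.0380), T14+RA against T14-RA gave 0.83 (edgeR adjusted p = 0.123), and these changes differed by −0.88 (95% interval −2.27 to 0.497, edgeR adjusted p = 0.790). Without T7-RA replicate 1, which held 6 of the 10 counts of its group, the day 7 value was 2.33 and the difference −1.50. In the cultures with RA, Rdh5 at day 14 was called against T0 (log2 fold change 4.23, edgeR adjusted p = 2.41e-08), where 19.7% of all genes were. The count ratio was 20.3 (78 against 3 counts, 95% exact interval 6.69 to 100.5), and the fitted value was 7.60 without T0 replicate 1. T7+RA against T0 gave 2.98 (edgeR adjusted p = 0.00105) among 10.4% of all genes called, and T14+RA against T7+RA gave 1.25 (edgeR adjusted p = 0.0134). The T7+RA value crossed the threshold without T0 replicate 1, T7-RA replicate 2, T14-RA replicate 1 or T14+RA replicate 2 or 3 (adjusted p from 0.000447 to 0.000972 in edgeR), with scaling by library size only (0.000666) and with the replicate block (0.000805). Leaving out T0 replicate 1 also moved it from 2.98 to 6.35, and its count ratio was 8.55 (30 against 3 counts, 95% exact interval 2.66 to 43.8). Other fits raised the adjusted p, to 0.00712 at most in edgeR when 1 library was left out. Limma on quantile-normalized counts gave 2.18 (limma adjusted p = 0.0142). Rdh5 overlaps Cd63 in the RefSeq annotation, and the strand setting of the counting is not given in the sources used here, so reads of the 2 genes could have been mixed.

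Aox1 (ENSRNOG00000015354, 9q31, 286 counts), an aldehyde oxidase able to turn retinal into RA, rose with culture time and had negative values for RA. The T0 libraries held 6, 1 and 0 counts, those without RA 16, 13 and 24 at day 7 and 52, 40 and 33 at day 14, and those with RA 7, 5 and 3 at day 7 and 38, 22 and 26 at day 14. In CPM the T0 libraries stood at 8.28, 1.88 and 0, T7-RA at 19.1, 17.5 and 34.9, T14-RA at 62.5, 70.8 and 55.9, T7+RA at 9.98, 6.71 and 5.14 and T14+RA at 36.7, 34.6 and 47.1. At each day every library with RA was below every library without it, and T7+RA overlapped T0.

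Aox1 rose by 2.49 from T0 to T7-RA (SE 0.614, edgeR adjusted p = 0.000102), the 1 member called there among 8.78% of all genes, and by 3.91 from T0 to T14-RA (SE 0.595, edgeR adjusted p = 9.85e-12). From T7-RA to T14-RA it rose by 1.42 (SE 0.285, edgeR adjusted p = 0.000140), again the 1 member called, with 2.95% of all genes. The T7 and T14 terms were 2.29 (edgeR adjusted p = 0.000470) and 4.02 (edgeR adjusted p = 1.11e-11). The first-week calls were lost without T0 replicate 2 (edgeR adjusted p = 0.00101 for T7-RA against T0 and 0.00449 for the T7 term), T0 replicate 3 (0.00171 and 0.00655) or T7-RA replicate 3 (0.00335 and 0.00494). That of the second week was lost without T7-RA replicate 1 (0.00549) or 2 (0.00525) or T14-RA replicate 1 (0.00156) or 2 (0.00214). Other tests also ended these calls. T7-RA against T0 was not called by limma-voom (2.79, limma adjusted p = 0.00155) or by limma on quantile-normalized counts (2.22, limma adjusted p = 0.00317). The T7 term was called neither by these (2.59 and 2.02, limma adjusted p = 0.00405 and 0.00365) nor by DESeq2 (2.35, DESeq2 adjusted p = 0.00157). T14-RA against T7-RA was not called by DESeq2 (1.43, DESeq2 adjusted p = 0.00162) or by limma on quantile-normalized counts (1.43, limma adjusted p = 0.0744). Without T0 replicate 1, which held 6 of the 7 counts at T0, the first-week and 14-day changes became 4.34 and 5.76.

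With RA the log2 fold change of Aox1 was −0.94 (SE 0.227, 95% interval −1.40 to −0.489, edgeR adjusted p = 0.00126), just short of the threshold. Leaving out T0 replicate 1, 2 or 3 or T14+RA replicate 3 brought it under the threshold (adjusted p from 0.000550 to 0.000715 in edgeR), and so did scaling by library size only (0.000987). Other fits raised the adjusted p, to 0.00641 at most in edgeR when 1 library was left out. Over the other scalings and tests (edgeR, DESeq2 or limma) it reached 0.0350. T7+RA against T7-RA gave −1.64 (SE 0.457, edgeR adjusted p = 0.00539), a count ratio of 0.317 (95% exact interval 0.166 to 0.570). T14+RA against T14-RA gave −0.69 (SE 0.256, edgeR adjusted p = 0.0684), a ratio of 0.615 (0.462 to 0.815). These changes differed by 0.95 (95% interval −0.0973 to 2.00, edgeR adjusted p = 0.631).

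In the cultures with RA the second-week change of Aox1 was called and that of the first week was not, and the difference between the weeks was not tested. T7+RA against T0 gave 0.85 (edgeR adjusted p = 0.367), a count ratio of 1.83 (15 against 7 counts, 95% exact interval 0.703 to 5.31), T14+RA against T7+RA gave 2.37 (SE 0.440, edgeR adjusted p = 2.69e-06), and T14+RA against T0 gave 3.22 (edgeR adjusted p = 2.62e-08). Without T0 replicate 1 the first and last of these were 2.70 and 5.07, and limma on quantile-normalized counts did not call T14+RA against T7+RA (2.24, limma adjusted p = 0.00534). The summed level of the 6 skeletal markers moved with Aox1, and its range was 859 to 876 CPM for T0, 2557 to 2909 for T7-RA, 7764 to 8330 for T14-RA, 1665 to 1855 for T7+RA and 3531 to 3977 for T14+RA. Of these 6 markers the T14 term raised 4 and lowered 1 and RA lowered 2, Myh3 and Tnnt3. Among the 4 fibroblast markers Lum also had a higher T14 term (7.22) and a lower RA term (−1.88), while Dcn had higher values for both (8.21 and 1.08), and all 4 of these were called. Of the others Col1a1 had a lower T14 term (−0.56, called) and Thy1 a lower RA term (−0.49, called), with values of 0.06 for the RA term of Col1a1 and −0.13 for the T14 term of Thy1 that were not called. The summed level of the fibroblast markers was 24632 to 37564 CPM at T0, 20435 to 20650 in T14-RA and 18448 to 23488 in T14+RA. Of the 5 smooth muscle markers the T14 term lowered 4 and RA lowered 1, Smtn, and their summed level was 15547 to 17043 CPM at T0 and 3471 to 5460 CPM in the later groups. The part of these markers in the values of Aox1 was not tested. Aox2, the close copy of Aox1, had 22 counts in all, and the RefSeq annotation has another gene over part of Aox1, so some of its reads may be uncertain, and their share was not measured.

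**Figure D3:**
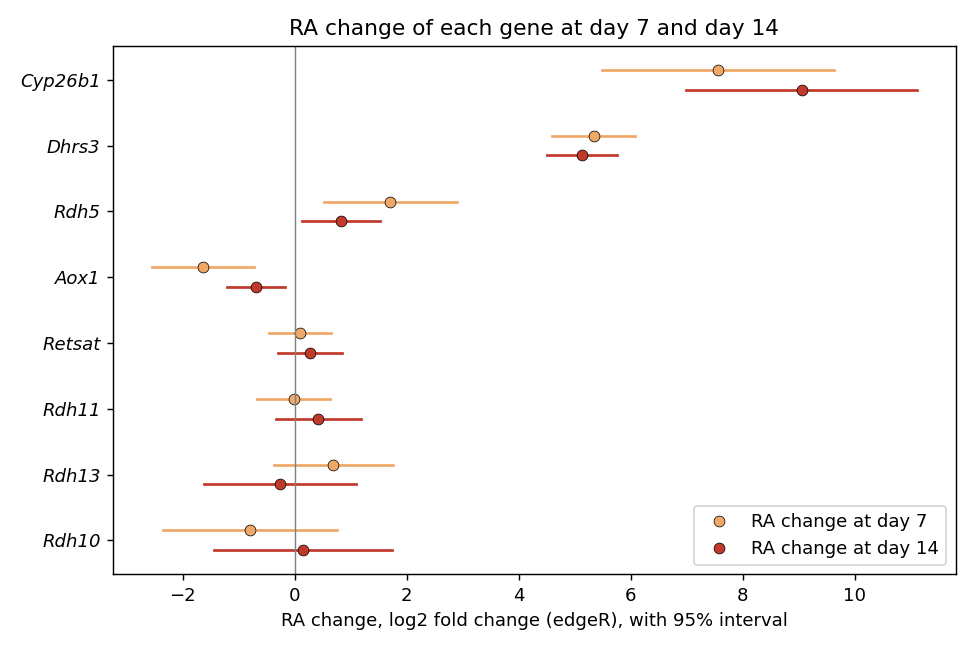
Change with RA at day 7 and at day 14 for the 8 genes, as log2 fold change from the fit with a mean for each group, with bars for the 95% interval. Cyp26b1 and Dhrs3 lie above 4 at both days, Aox1 lies below 0 and Rdh5 above 0 at both days, and the intervals of Retsat, Rdh11, Rdh13 and Rdh10 include 0.

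The other 4 genes were not called in any comparison made. Retsat (ENSRNOG00000014090, 4q31, 632 counts), the saturase that turns retinol into dihydroretinol, was the best counted of them. The T0 libraries held 76, 40 and 12 of its counts, and those of T7-RA held 52, 49 and 31, T14-RA 38, 29 and 38, T7+RA 46, 44 and 36 and T14+RA 54, 47 and 40. At T0 its libraries were spread from 25.2 to 105 CPM, a wider range than that of all the other libraries together, which lay between 45.0 and 73.9 CPM. The RA log2 fold change was 0.18 (95% interval −0.201 to 0.570, edgeR adjusted p = 0.626) and the T14 term −0.39 (95% interval −0.909 to 0.126, edgeR adjusted p = 0.246), and without T0 replicate 1 the T14 term was 0.12. A change beyond 1.5-fold lies outside the interval of the RA term. The intervals of the single days reached 0.653 at day 7 and 0.845 at day 14 on the log2 scale and do not exclude it.

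Rdh11 (ENSRNOG00000054770, 6q24, 211 counts), a reductase of retinal in the endoplasmic reticulum, had 8 to 22 counts in every library. Its means lay between 14.8 ± 4.95 CPM in T14-RA and 24.9 ± 2.83 CPM at T0 (SD, n = 3), with an RA log2 fold change of 0.17 (95% interval −0.322 to 0.662, edgeR adjusted p = 0.750). The T14 term was −0.66 (95% interval −1.33 to 0.0128, edgeR adjusted p = 0.124), and all 3 T14-RA libraries lay below all 3 at T0. Rdh13 (ENSRNOG00000027919, 1q12, 82 counts), a retinol dehydrogenase of mitochondria, had 2 to 11 counts per library and means between 5.27 ± 1.76 CPM in T14+RA and 12.1 ± 3.07 CPM in T7+RA. Its RA term was 0.33 (95% interval −0.511 to 1.16, edgeR adjusted p = 0.702) and its T14 term −1.01 (95% interval −2.17 to 0.145, edgeR adjusted p = 0.166).

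Rdh10 (ENSRNOG00000006681, 5q11, 45 counts), the dehydrogenase that makes retinal in the embryo, had 0 to 7 counts per library. Its means lay between 3.00 ± 3.54 CPM at T0 and 6.03 ± 2.07 CPM in T7-RA, its RA term was −0.34 (95% interval −1.42 to 0.743, edgeR adjusted p = 0.767) and its T14 term 0.50 (95% interval −1.14 to 2.13, edgeR adjusted p = 0.662). For Rdh10 a 2-fold lower level with RA and for Rdh13 a 2-fold higher level lie within the interval.

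The order of the genes by level per length differed between T0 and T14+RA. The size column of the table, whose definition is not given in the sources used here, was taken as gene length, and the order rests on it. In CPM, not divided by length, Cyp26b1 (633) stood above Dhrs3 (410) in T14+RA. Per kilobase, the levels at T0 were 30.7 ± 18.1 CPM for Retsat and 15.4 ± 1.75 for Rdh11 (SD, n = 3), then 3.34 for Rdh13, 1.64 for Dhrs3, 1.02 for Rdh10, 0.79 for Aox1, 0.60 for Rdh5 and 0.54 for Cyp26b1. The libraries of neighbours in this order overlapped, except for Rdh11 and Rdh13. In T14-RA, Retsat at 24.2 ± 4.31 and Aox1 at 14.8 ± 1.76 CPM per kilobase led. In T14+RA the order began with Dhrs3 at 197 ± 14.06 and Cyp26b1 at 139 ± 7.07 CPM per kilobase, whose ranges did not overlap. They were followed by Retsat at 29.8 ± 5.49, Rdh5 at 15.6 ± 5.33, Rdh11 at 12.1 ± 3.09 and Aox1 at 9.24 ± 1.58, among which Rdh11 overlapped both Rdh5 and Aox1, and by Rdh13 and Rdh10 at 1.67 and 1.61 CPM per kilobase.

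**Figure D4:**
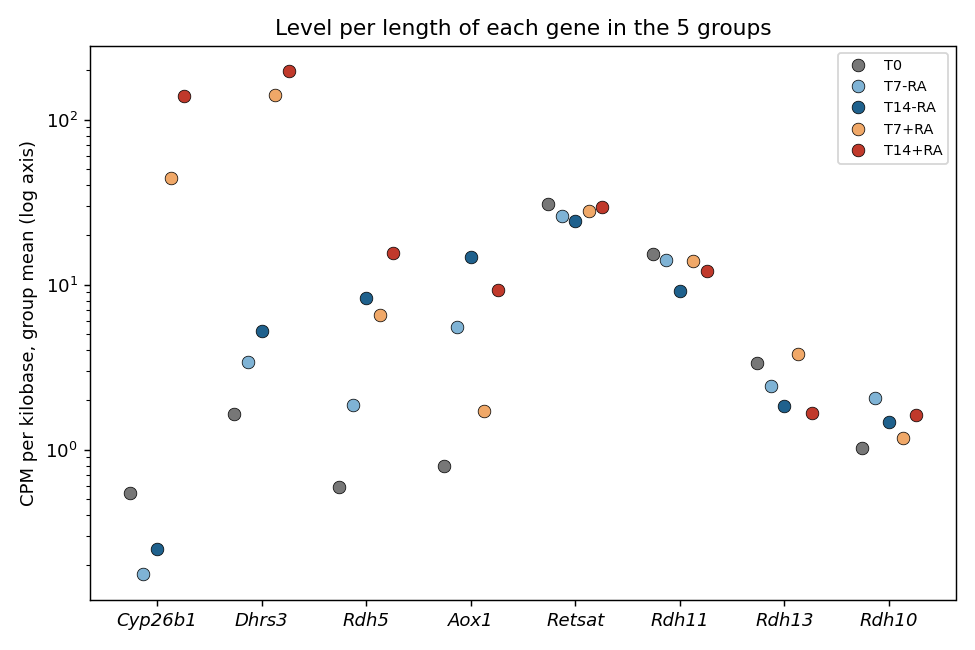
Level of each of the 8 genes per kilobase of gene length (group mean in CPM per kilobase, log axis) in the 5 groups, shown by colour. Retsat and Rdh11 are highest at T0, while Dhrs3 (197) and Cyp26b1 (139) are highest in T14+RA.

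Of 55 further pathway genes in 6 lists, 16 were in the table. A missing row does not show a low level, since the fibroblast marker Col1a2 had no row while Col1a1 held 239165 counts. RA raised 0 of the 16 and lowered 1, a share close to the 6.39% of all genes called, with a median RA log2 fold change of −0.12 over the 16 and −0.01 over all genes. At an unadjusted p under 0.05 this term held 5 of the 16 against 24.8% of all genes, and DESeq2 and both limma fits also raised 0 and lowered 1. Of 16 other retinol and retinal oxidoreductases 5 were listed (Adh5, Dhrs4, Dhrs7, Dhrs9 and Rdh14), and of 10 genes of ester handling and carotene cleavage also 5 (Bco1, Dgat1, Lipe, Lpl and Pnpla4). The 8 enzymes from retinal to RA were represented by Aox2 alone, so the dedicated retinal dehydrogenases of the Aldh1a family had no row, and the lists of 3 further RA hydroxylases and of 11 binding and transport proteins had 0 genes in the table. Of 7 receptors 5 were listed, Rara, Rarg, Rxra, Rxrb and Ppard. The T7, T14 and RA terms called 0 of these 5 at an edgeR adjusted p under 0.001, as did DESeq2 and limma, with 3, 3 and 2 of them at an unadjusted p under 0.05 against 34.2%, 43.1% and 24.8% of all genes. The nearest was the T14 term of Rara (−0.75, edgeR adjusted p = 0.00111). Against T0, T7+RA held 1 call among the 16 genes, Rara lower (−0.94, edgeR adjusted p = 0.000282), with 10.4% of all genes called. T14+RA against T0 held 5, with 19.7% of all genes called. Lpl (1.31, edgeR adjusted p = 0.000250), Rdh14 (1.34, edgeR adjusted p = 0.000647) and Ppard (1.02, edgeR adjusted p = 0.000741) were higher, and Dhrs9 (−1.28, edgeR adjusted p = 2.08e-08) and Rara (−1.08, edgeR adjusted p = 1.66e-05) were lower. Without RA the changes from T0 to day 14 had the same signs, at 2.10 for Lpl and −1.30 for Dhrs9, which were called, and at 1.05 for Rdh14 (edgeR adjusted p = 0.0136), 0.65 for Ppard (0.0529) and −0.69 for Rara (0.00486), which were not, and Rara at day 7 was −0.81 (0.00139).

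Of the 16 genes, 2 were called in the T7 term, the same 2 in the T14 term and 1 in the RA term, against 8.73%, 17.3% and 6.39% of all genes. Lpl, the lipoprotein lipase that also splits retinyl esters carried in lipoproteins, rose by 2.17 in the T14 term (SE 0.298, edgeR adjusted p = 1.10e-09) and fell with RA (−0.96, SE 0.172, edgeR adjusted p = 1.15e-05). Its T0 mean was 17.3 ± 2.01 CPM (SD, n = 3), and the means of day 7 and day 14 were 51.6 ± 14.4 and 74.6 ± 1.45 without RA and 21.7 ± 1.41 and 43.1 ± 9.60 with it, so that T14-RA was highest and T0 lowest, as for Aox1. Dhrs9, a dehydrogenase with retinol among its substrates, fell in the T7 term (−0.76, edgeR adjusted p = 0.000353, a call that limma on quantile-normalized counts did not make) and in the T14 term (−1.44, SE 0.176, edgeR adjusted p = 7.27e-10), from 152 ± 21.7 CPM at T0 to 60.8 ± 8.70 in T14-RA and 62.5 ± 10.8 in T14+RA. Its RA term was 0.28 (edgeR adjusted p = 0.193).

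Across the 15 libraries Cyp26b1 and Dhrs3 had the most alike patterns among the members, with a Pearson r of 0.968 on log2 CPM. Rdh5 correlated with Dhrs3 at 0.735, with Cyp26b1 at 0.667 and with Aox1 at 0.647. These values describe 5 groups of 3 libraries each, which share their treatment, and not 15 independent points. Among 8378 other genes with a mean count of at least 10, the 3 most like Cyp26b1 were Gm2a (r = 0.978), Gdpd5 (0.975) and Lipa (0.971), and the 3 most like Dhrs3 were App (0.985), Itgax (0.984) and Gm2a (0.982). For Aox1 they were Arl6ip5 (0.970), Mmp2 (0.966) and Cox8b (0.961). The neighbours of Dhrs3 and Cyp26b1 differed widely in the size of their RA change, from 1.24 for App to 4.04 for Itgax on the log2 scale.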

How the data were processed

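The authors deposited raw read counts of Ensembl genes for 15 libraries made with a stranded mRNA kit and paired-end sequencing. The submitters' processing notes name HISAT2, featureCounts and Rnor_6.0, with versions and strand setting not given in the sources used here. The authors kept genes with more than 20 counts in all. The table's gene size column (other values) was taken as gene length for CPM per kilobase only, and its definition is not given in the sources used here.

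From these counts, edgeR 4.0.16 in R 4.3.3 (TMM, robust quasi-likelihood test, common biological coefficient of variation 9.81%, Benjamini-Hochberg over all 11574 genes) fitted an additive model with an intercept and T7, T14 and RA terms, and a second model with 5 group means. The study fitted these terms with limma, and its formula has a further term b, read here as the intercept. Standard errors came from the fitted means and dispersions, and the fits were tested on simulated data. Count ratios used scaled sums with an exact binomial (Clopper-Pearson) interval of 95%, which covers counting error and not the spread between replicates. DESeq2 1.42.0, limma 3.58.1, other scalings, a low-count filter, a replicate block, other thresholds and leaving out each library were the alternatives. All 9 members were to be named, pathway genes if called in the T7, T14 or RA term, and the 3 genes most like each member, which are reported here for Cyp26b1, Dhrs3 and Aox1. Members and lists were chosen with earlier results of these data known. The p-values measure the spread between the replicates as labelled.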

Additional observations from a re-analysis of the deposited data

How the results depend on the processing

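The calls of Cyp26b1 and Dhrs3 with RA held in all 22 other fits of the RA term and of each day, while the calls over time were less stable. Of the 8 genes, the T7 term called 0 under DESeq2, limma-voom and limma on quantile-normalized log2(count + 1), and 0 to 1 when 1 library was left out. The T14 term called 1 (Aox1) under the same 3 tests, 1 to 2 without 1 library and 3 (Aox1, Dhrs3 and Rdh5) at a threshold of 0.05. T7-RA against T0 called 0 under both limma fits and 0 to 1 without 1 library. T14-RA against T0 called 1 (Aox1) under DESeq2 and both limma fits, 1 to 2 without 1 library and the same 3 genes at a threshold of 0.05. T14-RA against T7-RA called 0 under DESeq2 and limma on quantile-normalized counts, 0 to 1 without 1 library and 2 at a threshold of 0.05. At a threshold of 0.05 the RA term and the RA change at day 7 each called 4 (Aox1, Cyp26b1, Dhrs3 and Rdh5). Without 1 library the RA term called 2 to 3, the RA change called 2 at either day and the difference between days called 0. The cause of the losses was not tested. Signs turned in 5 fits, all of results that were not called. When 1 library was left out the T14 term of Rdh10 ran from −0.00497 (without T0 replicate 2) to 2.12 and that of Retsat from −0.73 to 0.12 (without T0 replicate 1). The difference between days of Cyp26b1 ran from −1.02 (without T7-RA replicate 1) to 4.19 and that of Dhrs3 from −0.50 to 0.18 (without T14-RA replicate 1). For this difference of Dhrs3 limma on quantile-normalized counts gave 0.091. Limma on quantile-normalized counts also lost the calls, though not the size, of the rise from T7+RA to T14+RA of Cyp26b1 (1.64, limma adjusted p = 0.0439) and Aox1 (2.24, limma adjusted p = 0.00534). Scaling by library size only moved the median T14 term of all genes from 0.05 to 0.15. The low-count filter removed Rdh10 and Rdh13. Deviations from the group means correlated over 0.1 in 5 of 30 pairs of same-numbered libraries (mean r 0.0321) and in 0 of 60 pairs with different numbers (mean r −0.0160). The deviations cancel within each group, so these means are tied to each other and are not separate results. With 3 numbers to choose from, 8 of 15 libraries correlated best with their own number. As not every same-numbered pair passed 0.1 and no source says what a number marks, the block is given as an alternative only. With the replicate block the counts of members called stayed 1 for T7, 2 for T14 and 2 for RA, while 797 genes in place of 740 were called for RA. Low counts are a limit: Rdh10, Rdh11 and Rdh13 had at most 22 counts in any library, and Cyp26b1, Dhrs3, Rdh5, Rdh10 and Aox1 had 3 to 7 counts in all T0 libraries together.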
